A study of Mus musculus with 8 samples.

Results

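Integrins are the adhesion receptors by which blood progenitors hold on to the bone marrow niche and enter tissues, and 10 genes that encode integrin subunits were followed here: Itga4, Itgb7, Itgb1, Itgal, Itgb2, Itga6, Itgam, Itgax, Itgae and Itgb3. They were chosen by name, with earlier results of these data known. All 10 were found by symbol among the 37991 gene IDs of the count table. All 10 passed the filter on low counts that left 13722 genes for testing. RNA was sequenced from B-cell-biased lymphoid progenitors, an early bone marrow stage that leans towards the B lineage, of mice lacking the histone variant macroH2A1 (genotype H2afy-/-, group H2afy_KO, 4 pools) and of wild-type mice (genotype H2afy+/+, group H2afy_WT, 4 pools). All mice were 5 to 12 weeks old. Each pool held RNA of 5000 to 15000 cells from 2 to 3 mice, sorted by flow cytometry after enrichment of Kit-positive marrow cells. The labels give no treatment, do not say which part of the allele is deleted, and do not say whether pools share mice, so a p-value reflects how far these pools spread. The series title ties the splicing of H2afy by mutant U2AF1 to B-lymphopoiesis, and the comparison of the genotypes addresses what loss of the gene does in this progenitor.

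The pools held 21330088 to 29029765 gene counts each. H2afy itself had 1423 to 1953 CPM (counts over the TMM-scaled library size) in the H2afy_KO pools and 1981 to 2567 CPM in the H2afy_WT pools, which, read over the whole gene, is no check of the genotype. The genes that define the sorted progenitor were present in every pool: Flt3, a growth factor receptor, had 892.5 to 1225 CPM in H2afy_KO and 850.2 to 1057 CPM in H2afy_WT, and Il7r, the interleukin-7 receptor chain, had 320.6 to 363.1 CPM in H2afy_KO pools and 383.6 to 449.9 CPM in H2afy_WT. The summed level of the 10 defining markers, most of it Dntt, was 7043 to 8589 CPM in H2afy_KO, against 8702 to 10580 CPM in H2afy_WT. The edgeR test, adjusted over all genes, called none of the 10. At an unadjusted p under 0.05, 5 of them were lower (3.69% of all genes tested) and 0 higher, and 3 were lower without overlap (2.35% of all genes tested). Rag1, which cuts antigen receptor genes, averaged 63.2 ± 28.9 CPM in H2afy_KO and 198.0 ± 91.2 CPM in H2afy_WT (log2 fold change -1.65, SE 0.47). Ebf1, a transcription factor of the B lineage, averaged 157.0 ± 73.4 CPM in H2afy_KO and 418.0 ± 179.6 CPM in H2afy_WT (log2 fold change -1.41, SE 0.45; SD, n = 4 each). Il7r was the other one without overlap, and Dntt (-0.50) and Cd79a (-0.93) overlapped. The immunoglobulin share of counts set pools of one genotype apart: it was 0.402%, 10.0%, 39.0% and 33.4% across H2afy_KO pools 1 to 4, and 3.47%, 0.948%, 19.5% and 12.9% across H2afy_WT pools 1 to 4.

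An integrin is a dimer of an alpha and a beta chain, and the pairing sets what it binds. The product of Itga4 pairs with that of Itgb1 to form VLA-4, a receptor for VCAM-1 and fibronectin that retains progenitors in marrow, or with that of Itgb7 to form LPAM-1, which binds MAdCAM-1 on gut vessels and marks mouse lymphoid progenitors able to give rise to innate lymphoid cells. The product of Itgb2 pairs with those of Itgal (LFA-1), Itgam (Mac-1) and Itgax (CD11c), the leukocyte integrins that bind ICAM proteins and complement fragments. The product of Itgae pairs with that of Itgb7 and binds E-cadherin, that of Itga6 pairs with that of Itgb1 and binds laminin, and that of Itgb3 pairs with the alpha chains of platelets and of vitronectin binding.

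Itgb7 and Itga4 were the members whose genotypes did not overlap, and Itgb1 encodes the other partner of the Itga4 product, so the start regions of these genes are shown side by side. RefSeq promoters (build GRCm38.p6, 250 bases before to 50 after the start) were given for 5 of the 10 members. Capitals mark matches, on either strand, to the GC box GGGCGG, the RUNX core TGTGGT, the PU.1 box GAGGAA and the TATA box TATAAA, and no match overlapped another. On the opposite strand the RUNX core reads ACCACA and the PU.1 box TTCCTC. The window of Itga4 lies on the plus strand at chr2:79255176-79255475, that of Itgb7 on the minus strand at chr15:102231886-102232185 and that of Itgb1 on the plus strand at chr8:128685404-128685703.
Itga4: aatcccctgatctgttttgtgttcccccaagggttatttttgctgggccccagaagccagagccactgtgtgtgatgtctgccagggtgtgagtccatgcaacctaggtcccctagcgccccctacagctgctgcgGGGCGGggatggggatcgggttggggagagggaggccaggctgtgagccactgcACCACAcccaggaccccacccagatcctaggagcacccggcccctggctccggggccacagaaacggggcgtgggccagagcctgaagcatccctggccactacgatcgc
Itgb7: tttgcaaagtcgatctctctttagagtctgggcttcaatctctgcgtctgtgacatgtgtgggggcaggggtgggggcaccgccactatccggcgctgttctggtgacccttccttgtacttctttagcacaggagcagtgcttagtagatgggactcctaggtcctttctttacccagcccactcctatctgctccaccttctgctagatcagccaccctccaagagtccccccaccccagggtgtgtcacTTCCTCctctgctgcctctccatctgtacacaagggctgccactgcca
Itgb1: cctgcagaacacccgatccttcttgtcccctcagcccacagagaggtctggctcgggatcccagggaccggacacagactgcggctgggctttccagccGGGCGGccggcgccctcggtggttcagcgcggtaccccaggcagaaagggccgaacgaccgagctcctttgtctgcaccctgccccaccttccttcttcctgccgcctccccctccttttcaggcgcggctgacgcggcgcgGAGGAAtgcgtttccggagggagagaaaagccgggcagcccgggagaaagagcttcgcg

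The Itga4 window held 1 GC box and 1 RUNX core, the Itgb7 window 1 PU.1 box and neither of those, and the Itgb1 window 1 GC box and 1 PU.1 box. Of the other windows given, that of Itgam held 3 PU.1 boxes and 1 GC box, and that of Itgax 1 RUNX core. Among all 32851 promoter windows, 35.7% held the GC box, 16.8% the RUNX core, 28.3% the PU.1 box and 13.6% the TATA box, which none of the 5 windows held. The GC content was 64.3% for Itga4, 56.3% for Itgb7 and 67.3% for Itgb1. Itga4 and Itgb7 thus had no searched motif in common in these windows, and a match describes letters and not a bound site.

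Itgb7, the beta chain of LPAM-1, had 25.8, 11.8, 16.2 and 14.6 CPM across H2afy_KO pools 1 to 4, and 3.38, 5.40, 8.79 and 4.10 CPM across H2afy_WT pools 1 to 4. The lowest H2afy_KO pool stood above the highest H2afy_WT pool, and H2afy_KO 1 stood above all others. The means were 17.1 ± 6.05 CPM for the H2afy_KO pools and 5.41 ± 2.40 CPM for the H2afy_WT pools (SD, n = 4 each), a ratio of 3.16. The log2 fold change, H2afy_KO over H2afy_WT, was 1.66 (SE 0.34), with an adjusted p of 0.340 over all genes from the edgeR quasi-likelihood test. In bulk RNA, more cells with a transcript and more transcript per cell cannot be told apart. The gene (ENSMUSG00000001281) spans 102046426 to 102062366 on the minus strand of chromosome 15 in NCBIM37, the assembly of mm9.

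Itga4, the alpha chain of both LPAM-1 and VLA-4, had 392.0, 334.8, 372.7 and 315.7 CPM across H2afy_KO pools 1 to 4, and 244.7, 201.5, 261.1 and 256.2 CPM across H2afy_WT pools 1 to 4. Again the genotypes did not overlap. The means were 353.8 ± 34.8 CPM for the H2afy_KO pools and 240.9 ± 27.1 CPM for the H2afy_WT pools (SD, n = 4 each), a ratio of 1.47 and a log2 fold change of 0.55 (SE 0.13). The adjusted p of the edgeR test over all genes was 0.419. The gene (ENSMUSG00000027009) spans 79095583 to 79173280 on the plus strand of chromosome 2. It shares 1124 exon bases with Cerkl on the opposite strand. The library kit does not mark strand, and Cerkl had 818 counts over all pools.

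The edgeR test, adjusted over the 13722 genes, called 0 of the 10 members and 0 genes in all (0.0%). At an unadjusted p under 0.05, Itgb7 and Itga4 were 2 of the 10 members, both higher, where 533 genes (3.88%) were higher and 507 (3.69%) lower over all genes. Genotypes did not overlap in 2 of the 10 members, both higher in H2afy_KO, where this held for 299 of all genes tested (2.18%). The median log2 fold change of the members was 0.44, with 8 of the 10 positive, and that of all genes tested was 0.00. Without H2afy_KO 3 and 4 the members' median was -0.07, with 4 of the 10 positive, and with the immunoglobulin share as a covariate it was 0.25. It was 0.23 without H2afy_KO 4, 0.26 without H2afy_KO 3 and 0.35 to 0.52 without any other single pool. DESeq2 called 47 genes higher (0.357% of the 13161 with an adjusted p), among them Itgb7 (adjusted p = 0.000759) and Itga4 (adjusted p = 0.0172). DESeq2 with the replicate number as a block called 268 higher (2.07%), with Itgb7 at an adjusted p of 0.000137 and Itga4 at 0.000220. With no filter on low counts, edgeR called 7 genes higher (0.025%), among them Itgb7 (adjusted p = 0.0301).

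**Figure D1:**
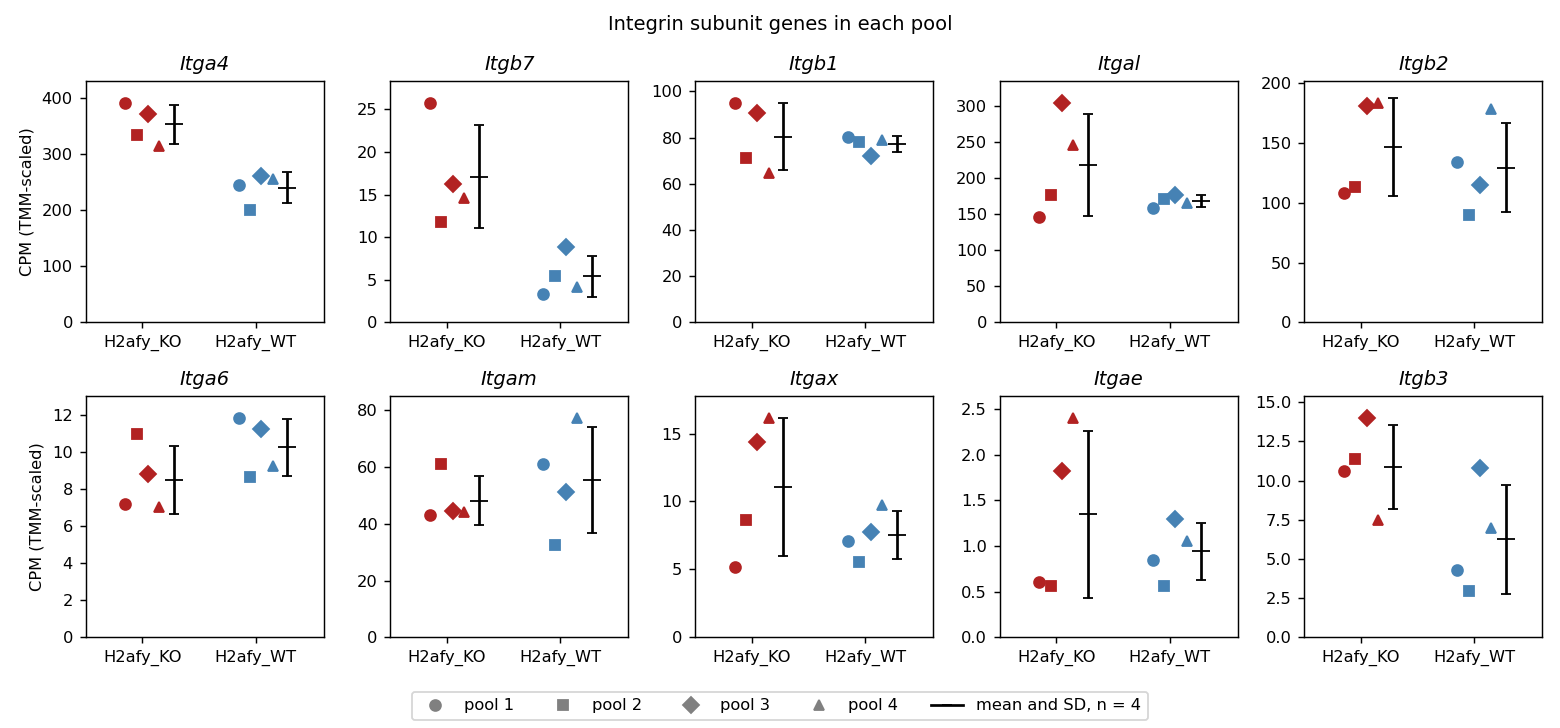
CPM of the 10 integrin subunit genes in each pool, H2afy_KO left (red) and H2afy_WT right (blue), with a marker shape for each replicate number and the mean with its SD (n = 4) beside the points; every vertical axis starts at 0. Itgb7 and Itga4 are the panels in which the lowest H2afy_KO pool lies above the highest H2afy_WT pool.

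H2afy_KO 1, which had the highest Itgb7 and the highest Itga4 level of the 8 pools, had the lowest immunoglobulin share, 0.402%. It also had the lowest summed level of the 12 plasma cell markers, 356.6 CPM. The other H2afy_KO pools had 5750 to 21500 CPM and the H2afy_WT pools 701.1 to 9469 CPM. Igj, the immunoglobulin J chain gene, made up 32.45 CPM of that sum in H2afy_KO 1. It made up 5055 to 18970 CPM in the other H2afy_KO pools and 281.8 to 8638 CPM in H2afy_WT. All 12 plasma cell markers had positive log2 fold changes, with a median of 1.27, and none was called. With the immunoglobulin share as a covariate the log2 fold changes were 1.65 (SE 0.34) for Itgb7 and 0.55 (SE 0.13) for Itga4, and without H2afy_KO 3 and 4 they were 1.81 (SE 0.43) and 0.60 (SE 0.16). The summed level of the 12 mast cell and basophil markers, cells that carry both chains, was 10.8 to 105.8 CPM in H2afy_KO and 14.9 to 91.9 CPM in H2afy_WT, and was lowest in H2afy_KO 1. The sum of the 18 T and natural killer markers was 445.3 to 810.1 CPM in H2afy_KO and 689.3 to 746.1 CPM in H2afy_WT. Most of it was Lck and Nkg7. Lck had 220.0 to 410.3 CPM in H2afy_KO and 348.2 to 366.6 CPM in H2afy_WT. Nkg7 had 179.4 to 370.9 CPM in H2afy_KO and 276.9 to 344.1 CPM in H2afy_WT. Cd3e, which defines T cells, was at or below 0.377 CPM in all pools. Of 13 tested, 7 had higher and 6 lower fitted levels in H2afy_KO (median 0.26 on the log2 scale), and none was called. Zap70 (log2 fold change 1.37, SE 0.35) and Cd5 (0.48, SE 0.26) were higher without overlap (2.18% of all genes tested). Trbc1 (-1.37, SE 0.54) was lower without overlap (2.35% of all genes tested). The 15 dendritic cell markers summed to 3176 to 9849 CPM in H2afy_KO and 2515 to 5312 CPM in H2afy_WT, of which Cd74, a class II chaperone that B and plasma cells also express, made up 697.3 to 7342 CPM in H2afy_KO and 801.0 to 3126 CPM in H2afy_WT. Without Cd74 the sum was 2136 to 2593 CPM in H2afy_KO and 1714 to 2191 CPM in H2afy_WT. Of that sum Flt3, also a defining progenitor marker, made up 892.5 to 1225 CPM in H2afy_KO and 850.2 to 1057 CPM in H2afy_WT. Of 14 dendritic cell markers tested, 13 had higher fitted levels in H2afy_KO, and the median log2 fold change of the 14 was 0.48. None was called, and 6 were higher at an unadjusted p under 0.05 (3.88% of all genes tested). Irf8 was higher without overlap (2.18% of all genes tested). The 9 mature B cell markers matched, of 10 listed, summed to 352.8 to 549.5 CPM in H2afy_KO and 597.0 to 863.9 CPM in H2afy_WT, without overlap. The part of these cells, and of the lower Rag1 and Ebf1 levels, in the Itgb7 and Itga4 levels was not tested.

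Itgb1, the beta chain of VLA-4, had 95.0, 71.3, 90.8 and 64.7 CPM across H2afy_KO pools 1 to 4, and 80.1, 77.9, 72.1 and 78.9 CPM across H2afy_WT pools 1 to 4. The H2afy_WT pools lay within the range of the H2afy_KO pools, which spread more widely. The means were 80.4 ± 14.7 CPM for the H2afy_KO pools and 77.3 ± 3.54 CPM for the H2afy_WT pools (SD, n = 4 each), with a log2 fold change of 0.06 (SE 0.14, edgeR adjusted p = 0.950). Its sign turned in 3 of the 19 alternative settings, which gave -0.04 to 0.15.

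Both beta chains pair with the Itga4 product, so their levels were set against each other within each pool, per kilobase of exon (RPKM). The log2 ratio of Itgb7 to Itgb1 was -1.31, -2.02, -1.91 and -1.57 across H2afy_KO pools 1 to 4, and -3.99, -3.28, -2.46 and -3.70 across H2afy_WT pools 1 to 4. Genotypes did not overlap, and the mean ratio, taken on the log scale, corresponded to 0.307 Itgb7 per Itgb1 in H2afy_KO and 0.0975 in H2afy_WT. The log2 ratio of Itga4 to Itgb1 was 0.27, 0.45, 0.26 and 0.51 across H2afy_KO pools 1 to 4, and -0.16, -0.41, 0.08 and -0.08 across H2afy_WT pools 1 to 4. It did not overlap either, so Itga4 exceeded Itgb1 in all 4 H2afy_KO pools and in 1 of the 4 H2afy_WT pools on this scale. That comparison with 0 depends on the exon length used and holds for the union of annotated exons. The log2 ratio of Itga4 to Itgb7 averaged 2.08 ± 0.37 in H2afy_KO and 3.22 ± 0.61 in H2afy_WT (SD, n = 4 each), so Itga4 remained the more abundant transcript of the pair in all 8 pools. The ratios were built from members already seen to differ and are given without a test.

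**Figure D2:**
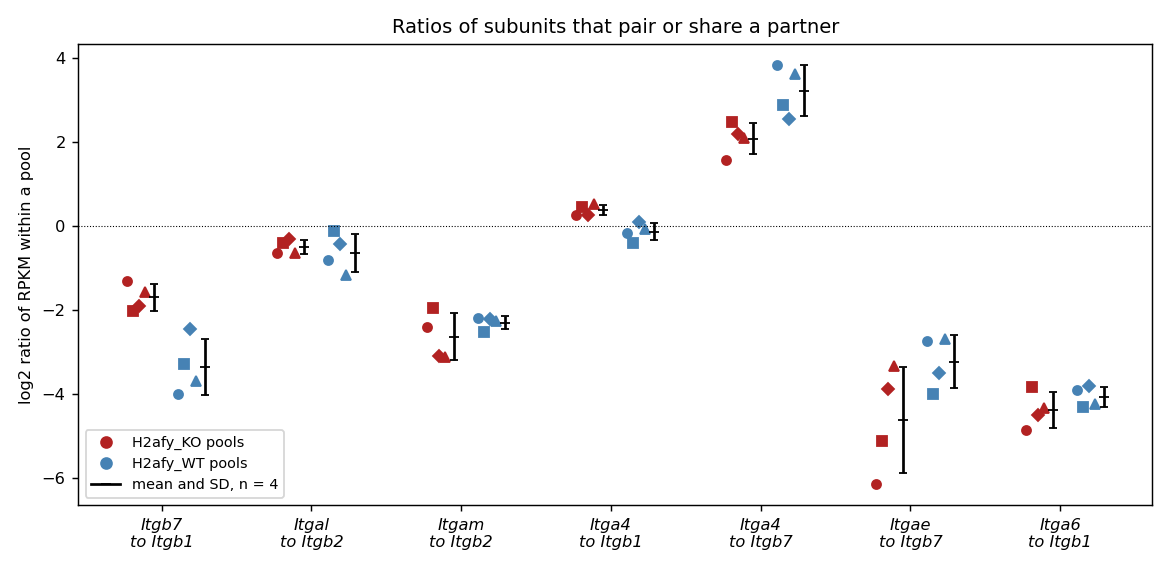
Log2 ratio of RPKM within each pool for 7 pairs of subunits, H2afy_KO left (red) and H2afy_WT right (blue) in each pair, with marker shapes for the replicate numbers and black bars for the mean and SD (n = 4). The genotypes lie apart in Itgb7 to Itgb1, Itga4 to Itgb1 and Itga4 to Itgb7, and overlap in the other 4 pairs.

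Itga6, the laminin-binding alpha chain also used as a stem cell marker, had 7.17, 11, 8.79 and 7.04 CPM across H2afy_KO pools 1 to 4, and 11.9, 8.64, 11.3 and 9.24 CPM across H2afy_WT pools 1 to 4. The genotypes overlapped, with a log2 fold change of -0.27 (SE 0.22, edgeR adjusted p = 0.807). All 19 alternatives kept the negative sign, from -0.42 to -0.17, and none called the gene. The log2 ratio of Itga6 to Itgb1 averaged -4.39 ± 0.43 in H2afy_KO and -4.07 ± 0.24 in H2afy_WT (SD, n = 4 each).

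Among the leukocyte integrin genes, H2afy_KO 3 and 4 had the highest levels of Itgal, Itgb2 and Itgax, and Itgam had none of its high levels there. Itgal, the alpha chain of LFA-1, had 146.0, 177.2, 304.3 and 246.1 CPM across H2afy_KO pools 1 to 4, and 159.0, 171.7, 177.2 and 165.3 CPM across H2afy_WT pools 1 to 4. H2afy_KO 3 and 4 stood above every other pool and H2afy_KO 1 below all, while the H2afy_WT pools lay close together. The log2 fold change was 0.38 (SE 0.20, edgeR adjusted p = 0.709), and without H2afy_KO 3 and 4 it was -0.05 (SE 0.14).

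Itgb2, the shared beta chain of this family, had 108.5, 113.3, 180.6 and 183.3 CPM across H2afy_KO pools 1 to 4, and 134.2, 90.0, 114.8 and 178.3 CPM across H2afy_WT pools 1 to 4. H2afy_KO 3 and 4 and H2afy_WT 4 were the high pools and the genotypes overlapped (log2 fold change 0.18, SE 0.24, edgeR adjusted p = 0.899). Without H2afy_KO 3 and 4 the fold change turned to -0.21 (SE 0.24). The log2 ratio of the RPKM of Itgal to Itgb2 averaged -0.50 ± 0.16 in H2afy_KO and -0.64 ± 0.45 in H2afy_WT (SD, n = 4 each), a difference of 0.14 that is smaller than either SD. That difference was -0.038 without H2afy_WT 4 and 0.31 without H2afy_WT 2.

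Itgax, whose product is the dendritic cell marker CD11c, had 5.17, 8.61, 14.4 and 16.2 CPM across H2afy_KO pools 1 to 4, and 7.09, 5.51, 7.79 and 9.77 CPM across H2afy_WT pools 1 to 4. The same pair of H2afy_KO pools stood above all others, with H2afy_KO 1 the lowest of the 8. Its log2 fold change was 0.55 (SE 0.34, edgeR adjusted p = 0.738) with all pools and -0.12 (SE 0.34) without H2afy_KO 3 and 4. Those pools also had the highest summed plasma cell markers, 21500 and 18070 CPM, and the highest immunoglobulin shares, 39.0% and 33.4%. Of these plasma cell sums Igj made up 18970 and 16320 CPM. In the same pools the summed dendritic cell markers, 9849 and 8047 CPM, were the highest too. Without Cd74 the sums were 2506 and 2593 CPM, against 2479 CPM in H2afy_KO 1. Flt3, also a defining marker of the sorted progenitor, made up 936.7 and 1034 CPM of these, against 1225 CPM in H2afy_KO 1. The part of plasma and dendritic cells in the Itgax level was not tested. With the immunoglobulin share as a covariate, the log2 fold changes stayed positive and were smaller, at 0.31 (SE 0.21) for Itgax, 0.26 (SE 0.16) for Itgal and 0.087 (SE 0.18) for Itgb2.

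Itgam, the alpha chain of Mac-1 and a marker of granulocytes and monocytes, had 43.0, 61.0, 44.4 and 44.2 CPM across H2afy_KO pools 1 to 4, and 61.1, 32.6, 51.1 and 77.4 CPM across H2afy_WT pools 1 to 4. The H2afy_KO pools all lay within the H2afy_WT range, with a log2 fold change of -0.21 (SE 0.24, edgeR adjusted p = 0.877). The high H2afy_WT pools, 1 and 4, also had the highest sums of the 20 granulocyte and monocyte markers, 6895 and 10350 CPM, against 1557 and 2235 CPM in H2afy_WT 2 and 3. In the H2afy_KO pools that sum was 1151, 2007, 3464 and 3223 CPM, and the highest Itgam level fell in pool 2 and not in pool 3. Without H2afy_WT 4 the log2 fold change was -0.0039, and without H2afy_WT 2 it was -0.40 (SE 0.18).

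Itgam, Itgax and Itgad lie in tandem on the plus strand of chromosome 7. In NCBIM37 coordinates Itgam spans 135206154 to 135271674 and Itgax 135273061 to 135294171, with 1.39 kb between them, and Itgad follows 3.72 kb on. Itgal lies 728 kb before Itgam. Fold changes of these neighbours had either sign: Itgam had a log2 fold change of -0.21, Itgax one of 0.55 and Itgad one of 1.21 (SE 0.39, edgeR adjusted p = 0.485), and none passed the edgeR test. Itgad passed under DESeq2 with the block (adjusted p = 0.0263, among 2.07% of genes called higher), and in edgeR with the block its adjusted p was 0.203. Itgad, the alpha chain of another Itgb2 partner, had 4.35, 7.52, 11.6 and 5.78 CPM across H2afy_KO pools 1 to 4, and 2.23, 1.85, 3.64 and 4.85 CPM across H2afy_WT pools 1 to 4, so 3 of the 4 H2afy_KO pools were above every H2afy_WT pool.

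**Figure D3:**
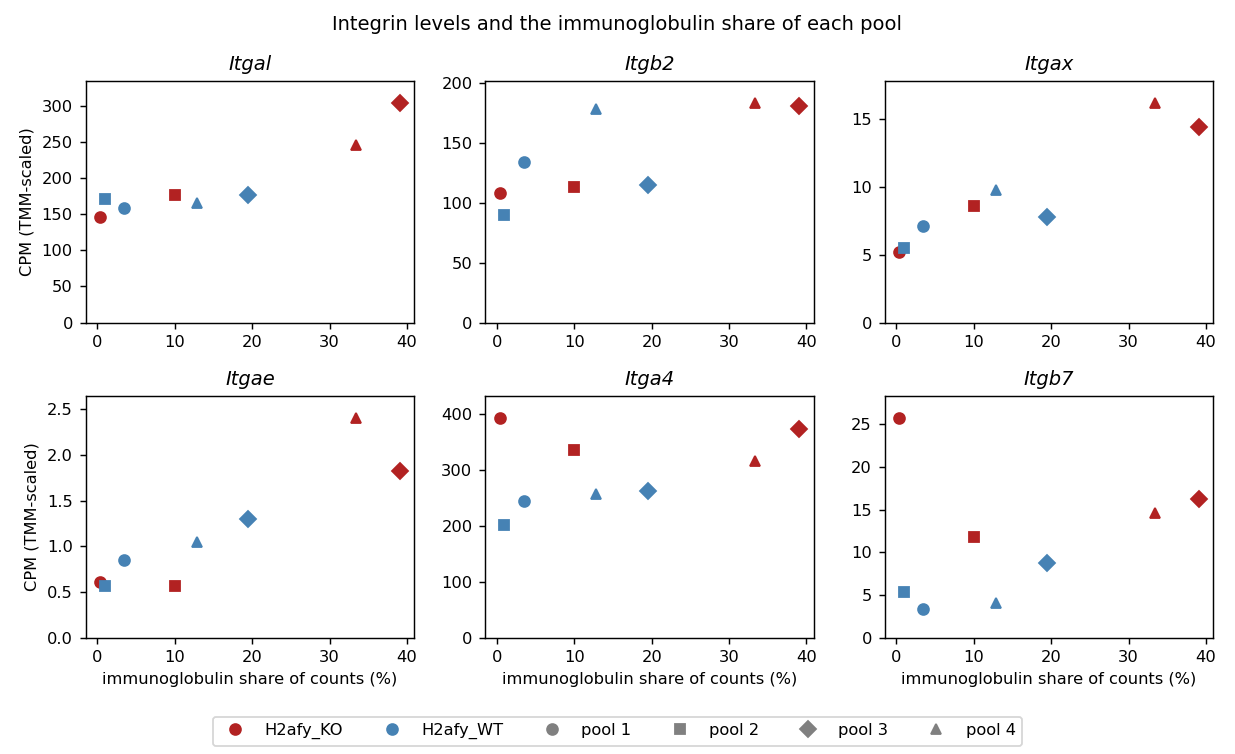
CPM of 6 integrin genes (vertical axes, from 0) against the immunoglobulin share of counts in each pool, with H2afy_KO in red, H2afy_WT in blue and marker shapes for the replicate numbers. Itgal, Itgax and Itgae are highest in H2afy_KO 3 and 4, at shares of 39.0% and 33.4%, while Itgb7 and Itga4 are highest in H2afy_KO 1, at a share of 0.402%.

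Itgae, the alpha chain that binds E-cadherin, was the least abundant member, with 13 to 57 counts in a pool. It had 0.603, 0.565, 1.82 and 2.40 CPM across H2afy_KO pools 1 to 4, and 0.844, 0.566, 1.30 and 1.05 CPM across H2afy_WT pools 1 to 4. H2afy_KO 3 and 4 again stood above the rest, and the log2 fold change was 0.51 (SE 0.55, edgeR adjusted p = 0.864) with all pools, 0.23 (SE 0.45) with the immunoglobulin share as a covariate and -0.67 (SE 0.63) without them. In pool 1 the H2afy_KO cells had the highest Itgb7 level and one of the lowest Itgae levels. The log2 ratio of Itgae to Itgb7 was -6.16, -5.12, -3.89 and -3.35 across H2afy_KO pools 1 to 4, and -2.74, -3.99, -3.50 and -2.70 across H2afy_WT pools 1 to 4, so Itgb7 exceeded Itgae in every pool on this scale.

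Itgb3, the beta chain of the platelet and vitronectin receptors, had 10.6, 11.3, 14.0 and 7.47 CPM across H2afy_KO pools 1 to 4, and 4.29, 2.94, 10.8 and 6.95 CPM across H2afy_WT pools 1 to 4. The genotypes overlapped through H2afy_WT 3, which stood above H2afy_KO 1 and H2afy_KO 4. The log2 fold change was 0.80 (SE 0.37, edgeR adjusted p = 0.674), and it was 1.20 (SE 0.34) without H2afy_WT 3 and 0.56 (SE 0.33) without H2afy_WT 2. Of its alpha partners, Itga2b, which marks megakaryocytes and platelets, was at 0.0870 to 2.24 CPM in H2afy_KO and 0.113 to 3.57 CPM in H2afy_WT. Itgav was at 9.79 to 14.6 CPM in H2afy_KO and 8.87 to 17.3 CPM in H2afy_WT. The 12 platelet and megakaryocyte markers summed to 7.87 to 12.2 CPM in H2afy_KO and 5.25 to 29.4 CPM in H2afy_WT, with Gp1bb and Gp6 at 0 in all pools. The highest sum, in H2afy_WT 4, stood beside 6.95 CPM of Itgb3. The H2afy_KO pools, with sums at or below 12.2 CPM, had 7.47 to 14.0 CPM of Itgb3. Only 7 of these 12 markers passed the filter on low counts. The part of platelets and megakaryocytes in the Itgb3 level was not tested.

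**Figure D4:**
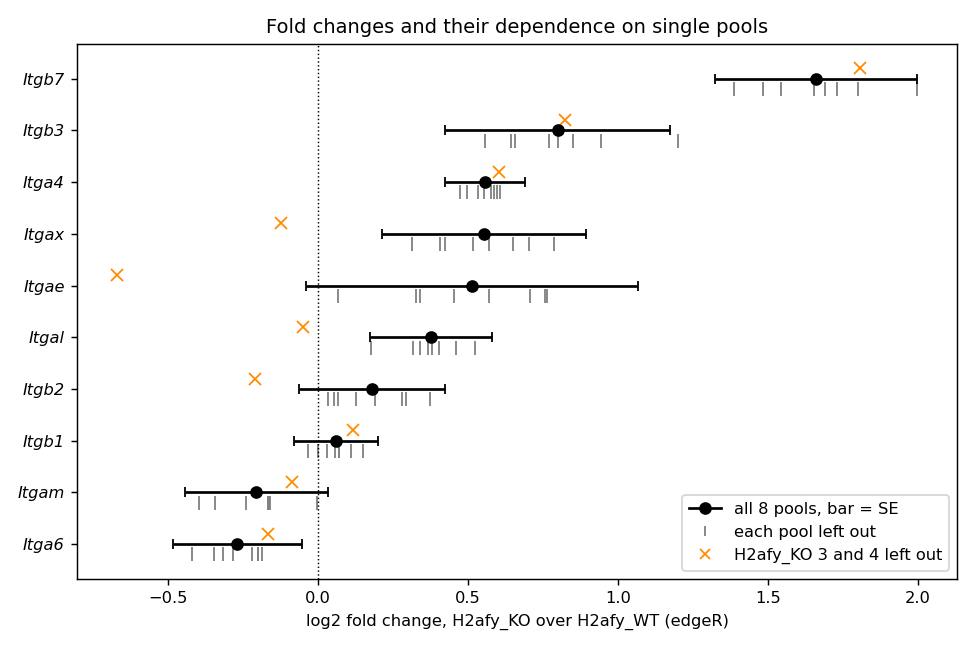
Log2 fold change of each member, H2afy_KO over H2afy_WT, from edgeR with all 8 pools (black, bar = SE), with each pool left out (grey ticks) and without H2afy_KO 3 and 4 (orange crosses). Itgb7, Itgb3 and Itga4 stay above 0 in all of these, while Itgal, Itgb2, Itgax and Itgae fall below 0 without H2afy_KO 3 and 4.

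Per kilobase of exon, the leukocyte pair led in both groups. Mean RPKM in H2afy_KO was 48.0 for Itgb2, 34.2 for Itgal, 25.3 for Itga4 and 19.7 for Itgb1. In H2afy_WT it was 42.4 for Itgb2, 26.4 for Itgal, 17.2 for Itga4 and 18.9 for Itgb1. Neighbours in this order overlapped between pools in H2afy_KO, and in H2afy_WT only Itgb1 and Itga4 overlapped among these genes. Further down, Itgam was at 7.55 ± 1.35 RPKM in H2afy_KO and 8.71 ± 2.94 RPKM in H2afy_WT, and Itgb7 at 6.23 ± 2.21 and 1.97 ± 0.87 RPKM (SD, n = 4 each, H2afy_KO before H2afy_WT). Itgb7 followed Itgam in both groups, and its pools overlapped those of Itgam in H2afy_KO and those of Itgax in H2afy_WT. Itgax, Itgb3, Itga6 and Itgae had means of 2.74, 1.86, 0.942 and 0.294 RPKM in H2afy_KO, and of 1.86, 1.07, 1.14 and 0.205 RPKM in H2afy_WT.

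**Figure D5:**
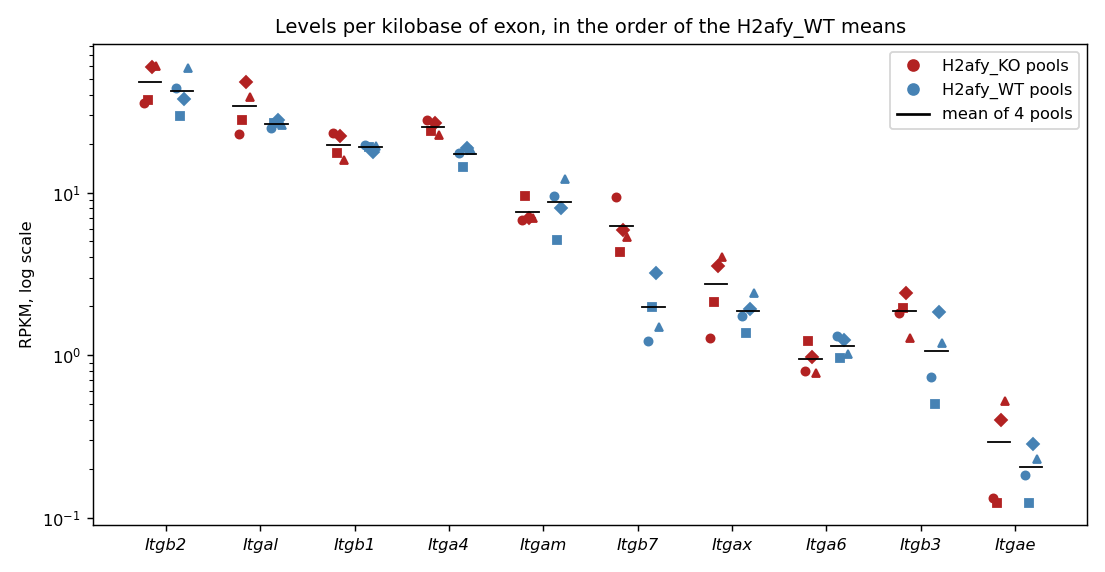
RPKM of the 10 members in each pool on a log axis, ordered by the H2afy_WT mean, with H2afy_KO in red to the left, H2afy_WT in blue to the right and black lines for the means of 4 pools. The levels span from 48.0 RPKM for Itgb2 to 0.294 RPKM for Itgae in H2afy_KO, and Itgb7 has the largest ratio of group means, 3.16.

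The rest of the integrin system showed no call in the main test. Of 17 other integrin subunit genes, 11 were tested and 0 passed in either direction, with a median log2 fold change of 0.28. Itgad (above) and Itga5 had the smallest p of that list. Itga5, the alpha chain of the fibronectin receptor VLA-5, had 8.51, 15.4, 7.10 and 14.6 CPM across H2afy_KO pools 1 to 4, and 13.8, 34.3, 13.7 and 11.2 CPM across H2afy_WT pools 1 to 4, a log2 fold change of -0.68 (SE 0.40, edgeR adjusted p = 0.729) with H2afy_WT 2 as the high pool.

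Of 37 genes of integrin activation and adaptors, 33 were tested and 0 passed, with a median of 0.03. The talin gene Tln1 and the kindlin-3 gene Fermt3, whose products switch integrins to the active state, had log2 fold changes of 0.18 (SE 0.15) and 0.09 (SE 0.16). Tln1 and Fermt3 were named after their values were seen. Skap1, an adaptor that links antigen receptors to LFA-1, had 0.667, 2.00, 3.34 and 1.81 CPM across H2afy_KO pools 1 to 4, and 4.22, 3.51, 10.0 and 3.98 CPM across H2afy_WT pools 1 to 4. The genotypes did not overlap in Skap1 (log2 fold change -1.49, SE 0.50, edgeR adjusted p = 0.504), where 2.35% of all genes tested were lower without overlap. Skap1 passed under DESeq2 with the block (adjusted p = 0.00688, among 1.95% of genes called lower), and in edgeR with the block its adjusted p was 0.155. Rap1a, a small GTPase that activates integrins, had a log2 fold change of 0.63 (SE 0.32, edgeR adjusted p = 0.700).

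Of 27 integrin ligand genes, 13 were tested and 0 passed, with a median of 0.22. Fn1, which encodes fibronectin, had 0.349 to 0.886 CPM in H2afy_KO and 0.169 to 0.413 CPM in H2afy_WT (log2 fold change 1.05, SE 0.55, edgeR adjusted p = 0.701). Thy1, whose product binds Mac-1, had a log2 fold change of -0.60 (SE 0.38, edgeR adjusted p = 0.753). Madcam1, the ligand of LPAM-1, was at or below 1.06 CPM in each pool and was not tested. Vcam1, the ligand of VLA-4, had 8.48 to 102.9 CPM in H2afy_KO and 15.3 to 66.4 CPM in H2afy_WT. Madcam1 and Vcam1 were also named after their values were seen.

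Of 16 partner genes of progenitor homing, 14 were tested and 0 passed, with a median of 0.01. Robo4, a receptor by which stem and progenitor cells are held in marrow, had 0.222, 0.478, 0.182 and 0.928 CPM across H2afy_KO pools 1 to 4, and 6.35, 5.77, 4.44 and 7.40 CPM across H2afy_WT pools 1 to 4 (log2 fold change -3.70, SE 0.49, edgeR adjusted p = 0.0531). It passed with the replicate number as a block (adjusted p = 0.0415, among 0.0802% of genes called lower) and without H2afy_KO 4 (adjusted p = 0.0386). Selplg, which encodes the selectin ligand PSGL-1, had 124.0, 70.5, 133.3 and 141.7 CPM across H2afy_KO pools 1 to 4, and 84.2, 49.1, 74.1 and 78.3 CPM across H2afy_WT pools 1 to 4. The groups overlapped through H2afy_KO 2. Each H2afy_KO pool exceeded the H2afy_WT pool of its number, but the numbers are not shown to be pairs. The log2 fold change of Selplg was 0.72 (SE 0.23, edgeR adjusted p = 0.493). It passed under DESeq2 with the block (adjusted p = 2.3e-06, among 2.07% of genes called higher). It did not pass in edgeR with the block (adjusted p = 0.0601) or under DESeq2 without the block (adjusted p = 0.1405).

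The genes most like Itgb7 and Itga4 over the 8 pools were sought by Pearson r of log2 CPM among 8090 genes with a mean of at least 10 CPM, immunoglobulin genes left out. These values describe 8 points that include the genotype difference and carry no test. Closest to Itgb7 were Tmem231 (r = 0.977), Ppp1r11 (0.958), Bloc1s2 (0.937), Il4ra (0.928) and Irf8 (0.916). Irf8, a transcription factor of monocytes and dendritic cells, had 324.3 ± 38.9 CPM for the H2afy_KO pools and 160.0 ± 26.0 CPM for the H2afy_WT pools (SD, n = 4 each), and Il4ra, the interleukin-4 receptor chain, had 68.5 ± 4.37 CPM for the H2afy_KO pools and 49.4 ± 6.06 CPM for the H2afy_WT pools (SD, n = 4 each). Closest to Itga4 were Cox6a2 (r = 0.965), Fgfr1op2 (0.958), Rtcd1 (0.940), Glipr1 (0.940) and S1pr3 (0.938). S1pr3, a receptor for sphingosine-1-phosphate, had 61.9 ± 7.77 CPM for the H2afy_KO pools and 39.0 ± 9.36 CPM for the H2afy_WT pools (SD, n = 4 each). Between Itga4 and Itgb7 themselves r was 0.865, and neither was among the 5 closest to the other.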

How the data were processed

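Per the labels' protocols, single reads of 50 bases came from low-input cDNA of total RNA, with a kit that does not mark strand. Per the submitters' processing notes, HISAT2 2.0.6 placed the reads on mm9. The authors deposited raw, not normalized counts per Ensembl gene, and the sources used here name neither the counter nor the annotation. Per the labels, 4 H2afy_KO and 4 H2afy_WT samples were grouped by title.

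GENCODE M1 (NCBIM37) named 37205 of 37991 IDs. Of 228 list entries 222 matched by symbol, 5 otherwise and 1 not. Genes were tested with edgeR 4.0.16 (quasi-likelihood, robust, TMM, filterByExpr with a minimum count of 10, Benjamini-Hochberg adjustment over all 13722 genes, threshold 0.05) in R 4.3.3. The SE is the log2 fold change over the square root of F. RPKM is CPM per kilobase of union exon length. No pair of pools agreed within sampling noise (lowest chi-square per degree of freedom 92.2 over 28 pairs). Alternatives were DESeq2 1.42.0, limma 3.58.1 (voom with sample weights), RLE and upper-quartile factors, other filters, a replicate block, immunoglobulin genes left out or their share as a covariate, and pools left out. The tests were tested on simulated counts. Members, lists, tests and alternatives were chosen with earlier results of these data known. Named genes were the members, the 2 of each pathway list with the smallest p, the 5 most like Itga4 and Itgb7, H2afy and markers.

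Both groups use the replicate numbers 1 to 4, whose meaning the labels leave unsaid. Across genes, a pool's departure from its group mean followed that of the pool with its number at r = 0.19, 0.188, 0.355 and 0.407. The main edgeR test used no pairing, and a block by replicate number was run only as an alternative, since each of these r was over 0.1. Only 2 of the 4 H2afy_KO pools matched their own number best. H2afy_KO 1 followed H2afy_WT 2 at r = 0.524 and H2afy_KO 3 followed H2afy_WT 4 at 0.454. The numbers are thus not shown to be pairs.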

Additional observations from a re-analysis of the deposited data

Results flagged for a closer look

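A pool standing far from the other 3 of its group was looked for in 50 groups of 4, by Dixon's ratio of the gap to the nearest pool over the whole range, at its 95% critical value. Chance flags about 1 in 20 groups, and 3 of the 50 were flagged. Itgam reached 61.0 CPM in H2afy_KO 2, where the other H2afy_KO pools lay at 43.0 to 44.4 CPM (ratio 0.922). Itga5 reached 34.3 CPM in H2afy_WT 2, where the other H2afy_WT pools lay at 11.2 to 13.8 CPM (ratio 0.887). Skap1 reached 10.0 CPM in H2afy_WT 3, where the other H2afy_WT pools lay at 3.51 to 4.22 CPM (ratio 0.891).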

How the results depend on the processing

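Itgb7 and Itga4 kept their direction under all 19 alternatives, with log2 fold changes of 1.39 to 2.00 (adjusted p 0.000137 to 0.830) and 0.47 to 0.61 (adjusted p 0.000220 to 0.830). Leaving out each pool gave 1.39 to 2.00 and 0.47 to 0.61. Itgb7 passed under DESeq2 (1.66), with no filter (1.66) and under DESeq2 with the replicate block (1.68), and Itga4 under DESeq2 (0.55) and DESeq2 with the block (0.56).

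The count of members called was 0 in the main test, 2 under DESeq2, 1 with no filter and 2 under DESeq2 with the block. The count of genes called was 0 in the main test, 118 under DESeq2, 5 with upper-quartile factors, 16 with no filter, 2 with at least 5 CPM in 4 samples, 15 with the replicate block, 520 under DESeq2 with the block, 4 under limma-voom, 3 without immunoglobulin genes and 3 with their share as a covariate. Leaving out each pool gave 0 to 1. The pathway genes called were 0 in the main test, 1 (Robo4) under DESeq2, with upper-quartile factors, with no filter, with the block, without immunoglobulin genes and with their share as a covariate, and 4 (Robo4, Selplg, Skap1 and Itgad) under DESeq2 with the block. It, too, came to 0 to 1 when each pool was left out. The block changed no call of a member in edgeR (Itgb7 adjusted p 0.129, Itga4 0.0952).

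Signs turned without H2afy_KO 3 and 4 for Itgal (-0.050), Itgb2 (-0.21), Itgax (-0.12) and Itgae (-0.67), and for Itgb1 under limma-voom (-0.0090), without H2afy_KO 1 (-0.036) and without H2afy_KO 3 (-0.0016), within a range of -0.036 to 0.15 with pools left out. The cause was not tested. With the longest transcript in place of the union of exons, 8 of the 10 members kept their place in the H2afy_KO order of RPKM, and Itga6 and Itgb3 changed places. In H2afy_WT, Itga4 moved above Itgb1 and Itga6 above Itgb7 and Itgax. Gene length cancels from the genotype difference of a subunit ratio, so that setting could not move it. With each pool left out, an alternative added after seeing the data, 5 of the 7 differences moved by less than the smaller of the group SDs. That of Itgal to Itgb2 ranged from -0.038 to 0.31 and turned sign without H2afy_WT 4, and that of Itgam to Itgb2 ranged from -0.56 without H2afy_KO 2 to -0.17 without H2afy_KO 4. The smallest member counts, 13 to 57 a pool for Itgae, limit what its values can show.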
